A study of Mus musculus with 2 samples.

Results

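FOS peaks were examined at 8 circadian clock genes, namely Nr1d1, Nr1d2, Npas2, Tef, Nfil3, Clock, Per1 and Per2, out of 21887 protein-coding mouse genes. The 8 genes were chosen by the peaks assigned to them and by the scores of those peaks, so these values describe the genes and test nothing. Every peak that named one of them as nearest gene or as host gene was taken, and for the others the closest peak on the chromosome. FOS is a subunit of the transcription factor AP-1, and chromatin immunoprecipitation with sequencing maps the DNA it occupies. The single library with values came from granulosa cells, the somatic cells around the oocyte. They were punctured out of ovarian follicles of wild-type female mice 25 days old, which had been primed with PMSG, a gonadotropin that stimulates follicles. The ovaries were taken 3 h after hCG, which triggers ovulation. The second library has the same genotype, cells and time, names no antibody in its title, and is not analysed here. How many mice gave the cells is not stated in the sources used here.

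The molecular clock is a loop of transcription factors. CLOCK or its relative NPAS2 pairs with BMAL1 on E-box DNA and switches on the Per and Cry genes, whose proteins return to block that pair. The REV-ERB receptors, made from Nr1d1 and Nr1d2, form an interlocked arm that represses the gene of BMAL1, and the bZIP factors TEF and NFIL3 act against each other at D-box DNA as activator and repressor. Clock genes cycle in the ovary, where gonadotropins are known to shift the timing.

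The deposited list held 2374 peaks. The authors' peak score ranks peaks within it, from 13 to 2234 with a median of 67, and peak widths ran from 268 to 1114 bp (median 342 bp). The depth is unknown, since no read counts were used, and with 1 library no value below has a replicate error. Of the 10 granulosa marker genes on the list used here, 4 had a peak (Cyp19a1, Nr5a1, Esr2 and Cyp11a1), as did 3 of 5 theca markers, 1 of 4 endothelial, 0 of 5 immune and 0 of 4 oocyte markers. Cyp11a1 is on both the granulosa and the theca list and was counted in both. For comparison, 8.69% of protein-coding genes were the nearest gene or host of a peak. The counts do not tell granulosa from theca cells. A peak does not measure expression, so the labelled cell type was not checked at the RNA level.

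FOS peaks were assigned to 5 of the 8 clock genes, 1 peak each, and to none of Clock, Per1 and Per2. Among all protein-coding genes, 8.69% (exact Clopper-Pearson 95% interval 8.32 to 9.07, counting error only) were the nearest gene or host of a peak. Because the 8 genes were chosen for their peaks, nothing is read from that contrast. The scores were 221 at Nr1d1, 68 at Npas2, 62 at Tef, 55 at Nfil3 and 28 at Nr1d2. Their median was 62, against 67 over all peaks. Thus 1 clock peak stood near the top of the list, 3 lay close to its middle and 1 lay near its bottom. Without replicates, it cannot be said whether Npas2, Tef and Nfil3 differ from each other in score.

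**Figure D1:**
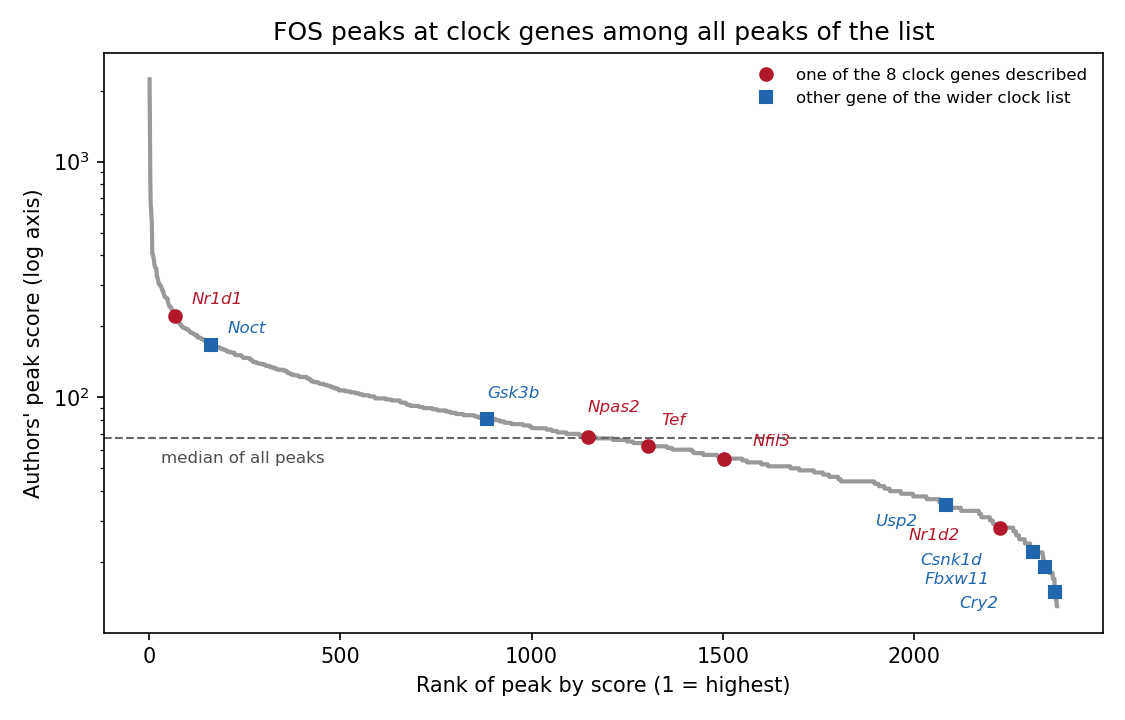
All 2374 FOS peaks ordered by the authors' score (x axis, rank; y axis, score on a log axis), with circles for peaks at the 8 clock genes and squares for other genes of a wider clock list. Nr1d1 (score 221) and Noct (166) lie far left, Npas2, Tef and Nfil3 lie near the dashed median of 67, and Nr1d2 (28) lies among the low scores with Csnk1d, Fbxw11 and Cry2.

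The strongest clock peak belonged to Nr1d1, which encodes REV-ERB alpha, the heme-binding repressor of the clock's second loop. It lay at chr11:98775729-98776372 (mm10) and was placed in the promoter class, with its centre 673 bp upstream of the transcription start. Its score of 221 ranked 67 of 2374, so that 2.86% of peaks scored as high or higher. It was 644 bp wide, rank 42 by width. Of the 360 promoter-class peaks, 8 scored higher. The promoter peaks closest to it in score, among other genes, were those of Myl12a (204), Rbm25 (200) and Ndufa5 (197), a comparison of scores alone. Its nearest neighbour peak was 157 kb away, where the median gap to the next peak was 145 kb.

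The Nr1d1 peak also lay inside Gm31862, a long noncoding RNA gene of the RefSeq table that starts at 98775411 on the opposite strand. The peak centre was 639 bp from that start and 673 bp from the start of Nr1d1. The next protein-coding start, that of Msl1, a subunit of a histone acetyltransferase complex, was 19.5 kb away. The peak therefore sat beside a divergent pair of starts, whose parts in it cannot be told apart from this list.

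Nr1d2 encodes REV-ERB beta, the closest relative of REV-ERB alpha, and its peak was one of the weakest in the list. The peak lay at chr14:18238663-18239033, in exon 1 of 8, with its centre 258 bp downstream of the start. Its score of 28 ranked 2225, a score shared by 35 peaks, and 95.2% of peaks scored as high or higher. It was 371 bp wide. The next peak on the chromosome was 2060 kb away, and the next gene start, that of the ribosomal protein gene Rpl15, was 32.1 kb away. Both REV-ERB genes thus had a peak within 1 kb of their start, on opposite sides of it and at opposite ends of the ranking.

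The sequences before the starts of Nr1d1 and Nr1d2 are shown because their peaks flank these stretches. They come from RefSeq (GRCm38.p6, the assembly that mm10 names), are the 250 bases upstream of each start, read 5′ to 3′ on the minus strand, and cover chr11:98775378-98775627 and chr14:18239107-18239356. Any match to 1 of 5 searched motifs would be in capitals, and neither has one.
Nr1d1: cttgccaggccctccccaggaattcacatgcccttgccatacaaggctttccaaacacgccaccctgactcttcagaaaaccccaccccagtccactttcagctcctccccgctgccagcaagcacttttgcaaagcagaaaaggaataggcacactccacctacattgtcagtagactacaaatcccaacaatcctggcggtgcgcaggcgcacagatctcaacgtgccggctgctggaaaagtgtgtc
Nr1d2: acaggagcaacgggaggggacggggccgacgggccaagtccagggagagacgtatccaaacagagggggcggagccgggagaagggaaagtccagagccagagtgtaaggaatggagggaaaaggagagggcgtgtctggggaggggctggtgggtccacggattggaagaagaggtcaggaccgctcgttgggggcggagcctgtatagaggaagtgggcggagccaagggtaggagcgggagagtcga
The Nr1d1 peak began 102 bp beyond the outer end of its stretch, and the Nr1d2 peak lay wholly downstream of the start. The DNA under the peaks themselves was not analysed here.

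**Figure D2:**
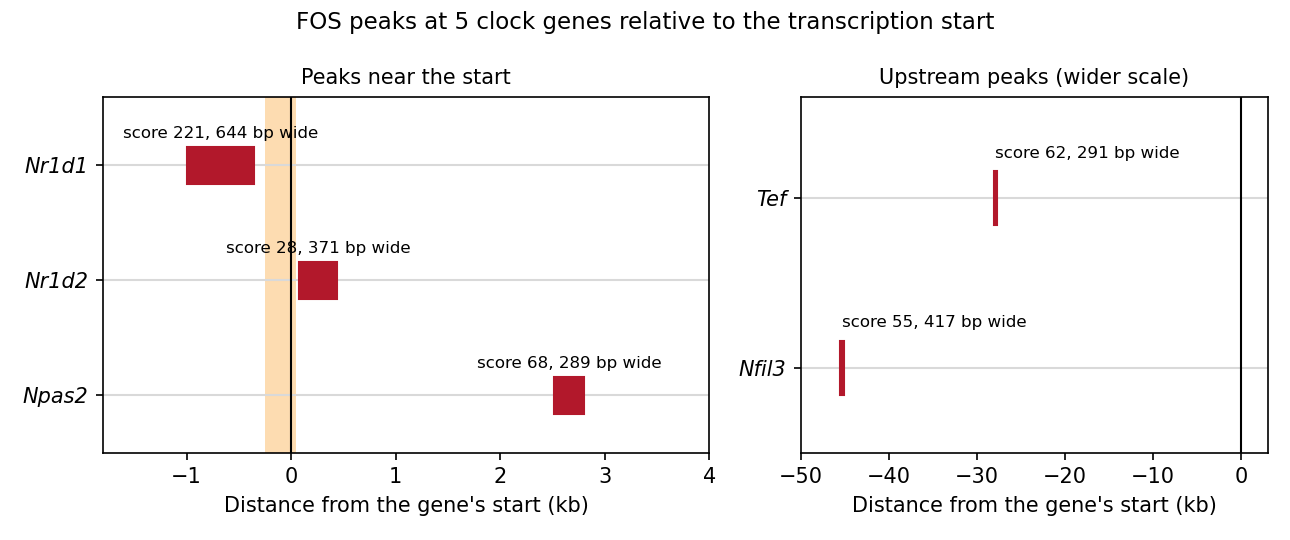
Peaks at 5 clock genes drawn to scale against the transcription start (x axis, kb, negative upstream; bars span each peak's width; the shaded band is the RefSeq promoter entry from 250 bases before to 50 after the start). The Nr1d1 and Nr1d2 bars lie on either side of the start, Npas2 lies 2.66 kb into the gene, and Tef and Nfil3 lie 27.9 and 45.3 kb upstream on a wider scale.

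Of the activators, Npas2 had a peak and Clock did not. NPAS2 can stand in for CLOCK as the partner of BMAL1. The Npas2 peak lay at chr1:39196787-39197075, in intron 1 of 20, with its centre 2.66 kb downstream of the start. Its score of 68 ranked 1147, and 49.2% of peaks scored as high or higher. It was 289 bp wide, narrower than the median peak. The next gene start in the RefSeq promoter table, that of the noncoding gene Gm35222, lay 169574 bp away. The nearest other peak was 90.8 kb away.

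Clock, whose protein is the histone-acetylating partner of BMAL1, spans chr5:76209868-76305603 and had no peak nearby. The closest was 235 kb away at chr5:76540218-76540655, in intron 4 of 17 of Exoc1, a gene of the exocyst complex that tethers secretory vesicles. It scored 52. For comparison, the median distance from a protein-coding gene to its nearest FOS peak was 286 kb, and 45.3% of genes had one closer than Clock did.

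Neither period gene was assigned a peak. PER1 and PER2 are the core repressors that hold the CLOCK and BMAL1 pair in check, and their genes are known to respond quickly to outside signals. Per1 (chr11:69095108-69109965) lay 23.7 kb from a peak at chr11:69071104-69071457. That peak was in exon 2 of 5 of Tmem107, which encodes a membrane protein of the cilium, and scored only 29. Of all protein-coding genes, 12.3% had a peak closer than Per1 did. Per2 (chr1:91415977-91459351) was 166 kb from the nearest peak, at chr1:91250005-91250352. That peak scored 120, rank 414, and was the promoter peak of Ube2f, which encodes an enzyme of the NEDD8 pathway. Of protein-coding genes, 37.5% had a closer peak than Per2.

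The D-box factors Tef and Nfil3 had distal upstream peaks of middling score. TEF activates D-box genes in company with DBP and HLF. Its peak lay at chr15:81774628-81774918, with its centre 27.9 kb upstream of Tef and a score of 62 (rank 1305, shared by 50 peaks). The peak was inside intron 7 of 22 of Zc3h7b, a zinc finger gene whose start was 29.7 kb away, and Gm17597, a noncoding gene starting beside Tef, was 27.8 kb away. The starts of Tef and of Zc3h7b, the host of the peak, were thus nearly equidistant from the peak.

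NFIL3, also called E4BP4, represses the D-box genes that TEF activates. The Nfil3 peak was intergenic at chr13:53026145-53026561, with its centre 45.3 kb upstream of Nfil3. It scored 55 (rank 1502, shared by 49 peaks) and was 417 bp wide. Ror2, a receptor of WNT5A signalling and the protein-coding gene on the far side, was 82.8 kb from the peak. By RefSeq starts, the noncoding genes Gm33519 (7.93 kb) and Gm33424 (19.5 kb) were closer than Nfil3. The authors' gene annotation assigned the peak to Nfil3.

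**Figure D3:**
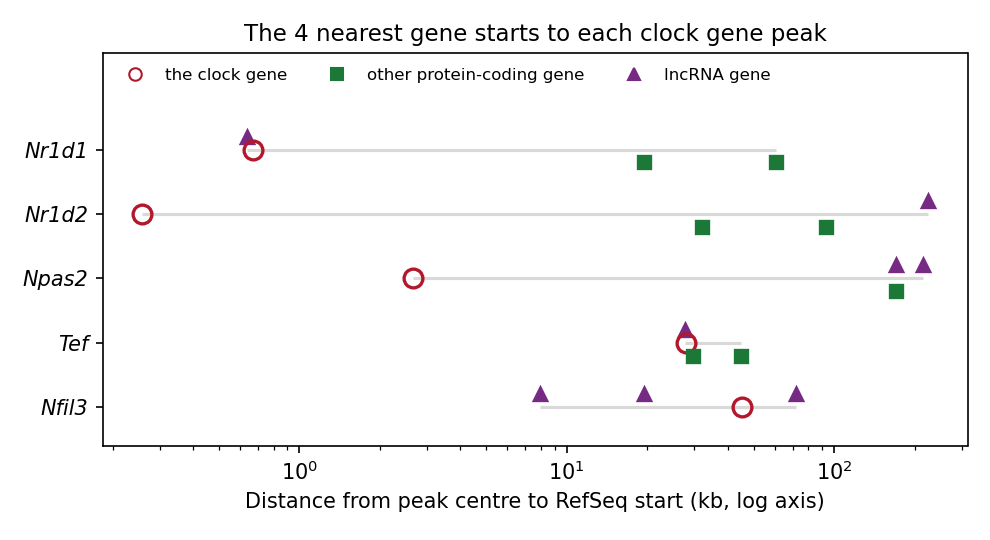
The 4 nearest RefSeq gene starts to each of the 5 clock gene peaks (x axis, distance from the peak centre in kb, log axis; open circles, the clock gene; squares, other protein-coding genes; triangles, long noncoding RNA genes). Nr1d2 and Npas2 stand well apart from other starts, while Nr1d1 and Tef each share their distance with a noncoding start and Nfil3 has 2 noncoding starts closer.

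E-box sequences, the sites of CLOCK and BMAL1, were found in promoter windows of Per1 and Tef, and a ROR or REV-ERB element in those of Nfil3 and Tef. The RefSeq promoter table matched 7 of the 8 genes, all but Per2, with 11 windows, since some genes have several starts. The search covered 250 bases before each start, on both strands, for AP-1 (TGANTCA), CRE (TGACGTCA), the E-box (CACGTG), the D-box (TTANGTAA) and the ROR or REV-ERB element (TNGGTCA). The E-box was in 3 of the 11 windows, those of a Per1 start and of the inner and outer Tef starts, against 6.02% of all 32851 windows. The ROR or REV-ERB element was in 2 of 11, against 9.19%. With so few windows, nothing is read from either contrast. The AP-1, CRE and D-box letters were in 0 of 11, against 6.75%, 1.55% and 2.06% of all windows. Of the 365 windows that overlapped any FOS peak, 24.4% held the AP-1 letters and 15.1% the E-box. For the CRE, the D-box and the ROR or REV-ERB element these shares were 6.58%, 1.64% and 8.49%. Of the 11 windows, 0 overlapped a FOS peak, where 365 of all 32851 windows did, so nothing is read from that 0. The absence of a match speaks only for these letters in these windows.

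These are the matched stretches, shown because they hold letters of the searched motifs in genes where FOS peaks were distal or not assigned. Binding of clock factors to them was not measured here. Capitals mark the match, which shares no base with another match, and each is 5′ to 3′ on the gene's strand from RefSeq, GRCm38.p6.
Per1, chr11:69098771-69098800, plus strand: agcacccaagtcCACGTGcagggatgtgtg
Tef, inner start, chr15:81811264-81811293, plus strand: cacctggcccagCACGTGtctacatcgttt
Nfil3, chr13:52981040-52981069, minus strand: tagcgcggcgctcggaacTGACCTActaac
Tef, outer start, chr15:81802423-81802672, plus strand: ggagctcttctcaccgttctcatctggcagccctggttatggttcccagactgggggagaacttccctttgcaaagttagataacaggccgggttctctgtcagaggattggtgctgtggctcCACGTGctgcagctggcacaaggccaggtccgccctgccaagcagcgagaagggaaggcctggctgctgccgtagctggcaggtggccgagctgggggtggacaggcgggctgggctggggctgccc
The E-box began 166 bases before a start of Per1 and 138 and 127 bases before the inner and outer starts of Tef. The Nfil3 match, on the reverse strand, began 12 bases before a start of Nfil3. This Per1 start, at 69098949, lies inside the gene span, whose outer end is at 69095108. Likewise, the Nfil3 start, at 52981039, lies inside a span whose outer end is at 52982878. The second Tef match to TNGGTCA, 219 bases before the inner start, is not printed.

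The wider clock machinery was described with a list of 33 genes that includes the 8. Of the 33, 11 were the nearest gene or host of a peak (33.3%, against 8.69% of protein-coding genes), and of the 25 genes besides the 8, 6 were (24.0%). Of the 11, 5 are the genes chosen for their peaks, so nothing is read from the share over all 33. The same holds for the scores and classes of all 11 peaks. The list itself was chosen with earlier results of these data known, so nothing is read from the values of the other 25 genes either. The 11 peaks scored 15 to 221 with a median of 55, and the 6 outside the 8 genes had a median of 28.5, against 67 over all peaks. At or above the median score stood 4 of the 11 peaks and 2 of the 6 outside the 8 genes, where 51.0% of all peaks did. By class, 3 of the 11 were promoter peaks (Nr1d1, Usp2 and Cry2), as were 2 of the 6 and 15.2% of all peaks.

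Noct carried the second-highest score on the list. It encodes nocturnin, a phosphatase of NADP cofactors whose RNA cycles with the clock. The authors' table names the gene by its older symbol, Ccrn4l. Its peak at chr3:51195152-51195756 was intergenic, 28993 bp upstream of the start and 605 bp wide, and scored 166 (rank 161). The next protein-coding start, that of Elf2, was 82.1 kb away. Nampt, the other output gene, which encodes an enzyme of NAD salvage, lay 432 kb from its closest peak.

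Of the 6 period and cryptochrome genes and their relatives, Cry2 alone had a peak (16.7%, against 8.69% of protein-coding genes). With 1 gene of 6, and with Per1 and Per2 chosen by their peaks, nothing is read from that share. The Cry2 peak was among the weakest of the whole list. CRY2 is a partner of the PER proteins in repression. The peak at chr2:92433861-92434424 scored 15 (rank 2368 of 2374), was 564 bp wide, and was centred 73 bp upstream of the start. It covered the whole promoter window, whose upstream 250 bases (chr2:92434070-92434319, minus strand, RefSeq, GRCm38.p6) are shown. They are shown because, of the 38 RefSeq promoter windows of the listed genes, this window alone overlapped a peak. Over all genes, 365 of 32851 windows overlapped one, so nothing is read from 1 of 38. Usp2 also had a promoter peak in the authors' annotation, but its nearest RefSeq window was 17544 bp from that peak. In the Cry2 window, capitals mark the match to TNGGTCA on the reverse strand, 133 bases before the start. The window held no TGANTCA.
Cry2: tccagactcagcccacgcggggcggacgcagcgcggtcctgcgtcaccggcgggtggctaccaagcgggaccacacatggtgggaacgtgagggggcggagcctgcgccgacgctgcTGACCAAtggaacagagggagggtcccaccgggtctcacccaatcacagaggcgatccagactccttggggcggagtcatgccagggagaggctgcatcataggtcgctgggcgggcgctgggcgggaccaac

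Among the 10 kinases, ubiquitin ligases and their partners, 4 had a peak, where 8.69% of protein-coding genes did. They belong to a list chosen with earlier results of these data known, so nothing is read from that contrast. Of those 4 peaks, 1 scored at or above the median, as did 51.0% of all peaks. Gsk3b, a kinase that phosphorylates several clock proteins, held a peak of score 81 in intron 1 of 10. That peak was assigned to the noncoding gene BC031361, whose start was 21.6 kb away, nearly as far as that of Gsk3b. Usp2, a deubiquitinase with rhythmic RNA, had a promoter peak of score 35 centred 29 bp upstream of the start in the authors' annotation. The nearest RefSeq promoter window of Usp2 was 17544 bp from this peak. The peak also overlapped the noncoding gene Gm39325, whose start was 5.18 kb away. Csnk1d, which encodes the kinase that marks PER proteins for decay, held one that scored 22, in intron 2 of 8. Fbxw11, a ligase adaptor for PER proteins, held one that scored 19, in intron 2 of 12 and 64.3 kb from its start.

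The other 19 genes of the wider list had no assigned peak, and 3 of them had a peak of another gene within 50 kb. Bhlhe40, which encodes DEC1, a competitor for E-boxes, was 10042 bp from a peak of score 49. Dbp, the relative of Tef, was 24.8 kb from a peak of score 74 inside Sec1. Arntl, the gene of BMAL1, was 26.5 kb from an intergenic peak of score 79. Any peak within 50 kb was found for 9 of the 25 genes besides the 8 (36.0%), against 18.2% of protein-coding genes. Among the 8 genes, chosen for their peaks, the number was 6, with Per1 gained. Because the wider list was also chosen with earlier results known, nothing is read from either number. Rora, the activator that opposes the REV-ERBs at their shared elements, was 65.2 kb from a peak, and its relative Rorb was 599 kb away. Hlf, of the Tef family, was 1870 kb away.

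**Figure D4:**
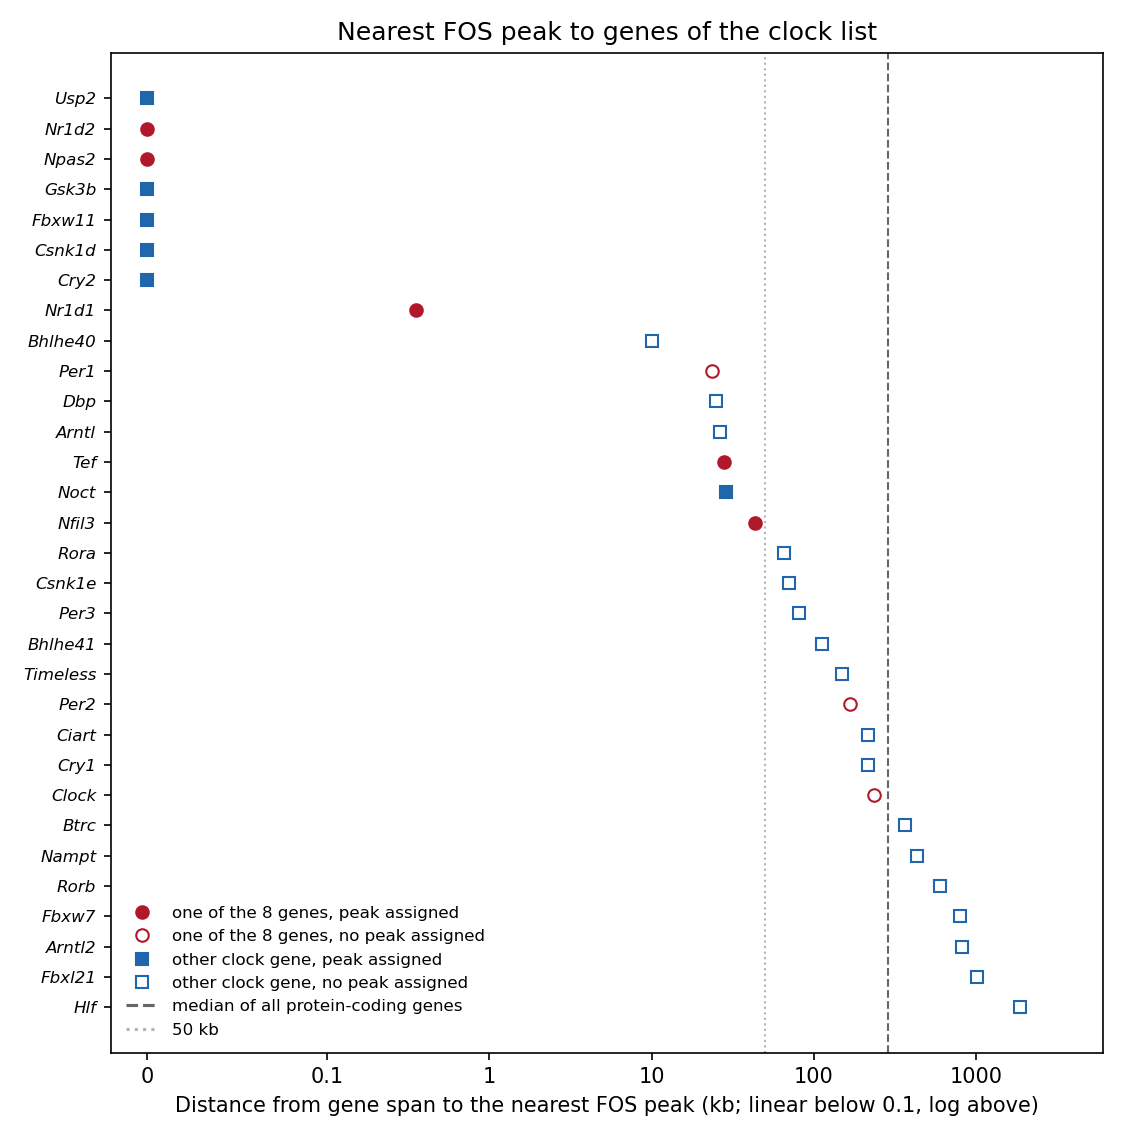
Distance from 31 of the 33 clock genes to the nearest FOS peak (x axis, kb, linear below 0.1 and log above; filled symbols, a peak was assigned to the gene; open symbols, none; circles, the 8 genes; squares, the others). The dashed line is the median of protein-coding genes, 286 kb: all 8 circles lie to its left, with Clock (235 kb) the farthest and Per1 (23.7 kb) among the genes within the dotted 50 kb line. The 8 genes were chosen by their peaks, so nothing is read from their side of the line.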

How the data were processed

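One table of narrow peaks from the FOS library was used. Per the file headers, the authors annotated a narrowPeak file with annotatePeaks of HOMER, giving each peak a score, a class, a nearest gene and a signed distance to its start. The tools MACS2 2.2.7.1, BWA, deepTools 3.5.1 and Trim Galore and the build mm10 are named in the submitters' processing notes. For the peak threshold, the control and the scale of the deposited score, the sources used here give nothing, so scores were only ranked within the list. No read depth could be had.

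Nearest and host genes were looked up in RefSeq (GRCm38.p6) by accession, symbol or older symbol. All 2374 nearest genes matched, and 3 of the 1534 peaks whose class names a gene named one that did not. Python 3.11.15, numpy 2.4.6, pandas 2.3.3 and scipy 1.17.1 were used, and assignment and distances were tested on simulated data. No test was made, as there is 1 library. Described by name were the 8 genes, every listed gene with a peak, neighbouring genes and the 3 promoter peaks nearest in score. Genes of the wider list without a peak, and the order in which they are named, were picked after their values were seen. The members and lists were chosen with earlier results of these data known. The counts over the wider list include 2 genes that are not reported here singly. Alternatives covered score, distance, assignment and background.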

Additional observations from a re-analysis of the deposited data

How the results depend on the processing

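Score decided most counts. With scores of 67 or more, the median, 2 of the 8 genes kept a peak (2 peaks, median score 144.5), as did 4 of the 33 listed genes and 4.75% of protein-coding genes. With scores of 99 or more, Nr1d1 alone of the 8 kept its peak (1 peak, score 221), with 2 of the 33 genes and 2.55% of protein-coding genes. Within 10 kb of a start the numbers were 3 genes, 3 peaks (median score 68), 5 of 33 genes and 3.85%. Within 100 kb the counts stayed at 5, 5 and 11 with a background of 7.89%. Nearest genes alone gave 5, 5 and 10 with 7.58%. Any peak within 50 kb gave 6 genes, 6 peaks (median score 58.5), 15 of 33 genes and 18.2%. Against all genes of the table the background was 4.45%.

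Chosen after seeing the data, the score limits moved the nearest peak of Clock to 3580 kb under both, and that of Per1 to 223 kb at the median and 301 kb at 99, while Per2 stayed at 166 kb. Motif counts in the 11 windows of the 8 genes were the same over whole 300-base entries, which were not run for the other windows. No paired analysis was possible because each group holds 1 library. Replicates, depth and the DNA under the peaks would be needed to set an error on any score.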
